A study of Rattus norvegicus with 6 samples.

Results

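Semaphorins, plexins, neuropilins, Slits and Robos are secreted or surface proteins through which cells guide axons and other moving cells. The 37 genes described here are all symbols of these families found among the 30560 genes counted: 7 secreted semaphorins (Sema3a to Sema3g), 12 transmembrane semaphorins, the GPI-anchored semaphorin Sema7a, 2 neuropilins, 9 plexins, 3 Slits and 3 Robos. They comprise 23 ligands and 14 receptors, taken by symbol. The data are single-nucleus RNA counts from brains of male wild-type rats aged 12 weeks, taken 48 h after a filament had permanently closed the right middle cerebral artery (MCAO, middle cerebral artery occlusion), or after a Sham operation in which no filament was inserted. The Sham group consisted of Sham L and Sham R, the left and the right hemisphere of the same 4 rats. MCAO contra and MCAO ipsi, the hemispheres opposite to and on the side of the infarct, each held 1 library from 3 rats with moderate infarctions (mMCAO) and 1 library from 4 rats with severe infarctions (sMCAO). Each library pooled the nuclei of its rats, so p-values rest on the spread between libraries, in part shared over genes, and not between animals. The 2 libraries of a group are either hemispheres of the same animals or differ in severity.

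In the textbook scheme, secreted class 3 semaphorins bind neuropilins, which signal through plexins of the A and D groups, whereas most membrane semaphorins bind plexins directly and Sema7a binds Plxnc1 and integrins. Slits bind Robo receptors, classically to keep axons from crossing or re-crossing the midline and to keep migrating cells on course. In the adult brain these genes are also known in vessels, meninges, glia and at synapses, and class 3 semaphorins are known from scar tissue around lesions.

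The 6 libraries held 8774 to 14508 nuclei and 33012945 to 52513380 UMIs (unique molecules), with a median of 2059 UMIs per nucleus in sMCAO ipsi and up to 3360 in mMCAO contra. Cell classes were set by gates on marker genes, which placed 46797 of 73649 nuclei in 11 classes, of which 9 had enough nuclei in every library. Markers kept out of the gates were highest in their own class in 6 of 6 libraries for each of these 9 classes. The gate markers of other GABAergic neurons were highest in their own class in only 3 of 6 libraries. They summed to 7516 to 7831 CPM there and to as much as 9064 CPM in another class, with OPC the highest other class by mean. Myeloid nuclei of Sham were mixed, however: they numbered 46 and 50, and their 12 held-out myeloid markers summed to 929 and 953 CPM, against 2801 and 4054 CPM in MCAO ipsi. Neurons made up 73.9% and 78.9% of the nuclei of Sham and 60.2% and 29.4% in mMCAO ipsi and sMCAO ipsi. Neuronal RNA in glial nuclei, estimated from genes of neurons, moved with infarction: its share of astrocyte UMIs was 28.7% and 27.3% in Sham, 19.7% and 22.3% in MCAO contra, and 12.4% and 7.49% in MCAO ipsi, with the same order in oligodendrocyte precursor cells (OPC) and oligodendrocytes. Of 73826 barcodes, 3022 were found in more than 1 library. Levels below are CPM, the UMIs of a gene scaled to a common total of all UMIs of its class in a library, values are given as Sham L and Sham R, then mMCAO and sMCAO, and counts of UMIs do not correct for gene length, so that each gene is compared only with itself.

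In Sham, 5 secreted semaphorins had their highest level in fibroblast or endothelial nuclei. Fibroblast nuclei, the cells of the meninges and vessel sheaths, had the highest levels of Sema3a (499 and 420 CPM), which is a classical repellent of axons, of Sema3c (227 and 560 CPM) and of Slit2 (726 and 980 CPM). For Sema3a the fibroblast level was the highest of the 9 classes in 6 of 6 libraries, for Slit2 in 5 and for Sema3c in 4. Sema3d was also highest in fibroblasts, at 227 and 315 CPM, but these values overlapped those of OPC (197 and 314 CPM). Likewise, Sema3e stood at 318 and 385 CPM in fibroblasts and at 321 and 319 CPM in oligodendrocytes, so the order of these 2 classes was not resolved. The fibroblast values rest on 21 and 24 nuclei and on 14 to 44 UMIs per gene over both Sham libraries. Sema3g, a ligand known from vessels, was highest in endothelial nuclei on 3 UMIs (22.5 and 51.7 CPM). Sema3f reached its highest mean in myeloid nuclei on 3 UMIs, with medium spiny neurons next (16.2 and 16.1 CPM). Sema3b had 15 UMIs in all nuclei and is too low to place.

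The other 2 Slits were highest in neurons. Slit1 stood at 213 and 202 CPM in glutamatergic neurons, against 116 and 112 CPM in other GABAergic neurons and 63.4 and 64.1 CPM in medium spiny neurons, the main neurons of the striatum. This order held in all 6 libraries for the top class and the Sham values of the 3 classes did not overlap. Slit3 was highest in medium spiny neurons (1274 and 1126 CPM), just above glutamatergic neurons (1123 and 1059 CPM), with other GABAergic neurons far lower at 257 and 248 CPM.

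Membrane semaphorins were mostly glial. OPC had the highest levels of Sema5a (548 and 476 CPM) and Sema5b (322 and 305 CPM), 2 semaphorins with thrombospondin repeats, and both kept this place in 6 of 6 libraries. Sema4d, a ligand of Plxnb1, was highest in oligodendrocytes at 447 and 478 CPM, ahead of myeloid nuclei at 192 and 90.1 CPM. Oligodendrocytes also led for Sema4c (30.6 and 43.2 CPM) and Sema6d (166 and 213 CPM), although astrocytes overlapped them for Sema6d (238 and 123 CPM). Sema4b (74.5 and 61.3 CPM) and Sema4a (44.7 and 81.7 CPM) were highest in astrocytes, the latter with glutamatergic neurons next at 42.2 and 41.4 CPM. Sema6a was highest in endothelial nuclei (518 and 258 CPM) and next in oligodendrocytes (297 and 457 CPM), and these overlapped. Sema7a was highest in endothelial nuclei, at 180.0 and 207 CPM, in 6 of 6 libraries. Sema4f (35.2 and 40.3 CPM) and Sema6b (mean 19.6 CPM) were highest in glutamatergic neurons with other classes close by, and the leading classes of Sema4g (endothelial) and Sema6c (fibroblast) rest on 2 and 1 UMIs.

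Receptors for the class 3 semaphorins were divided between vessels, fibroblasts and neurons. Nrp1, which also binds VEGF-A, stood at 315 and 284 CPM in endothelial nuclei and at 118 and 116 CPM in glutamatergic neurons. Nrp2 was highest in fibroblasts at 227 and 175 CPM. Endothelial nuclei led for Plxna2 (923 and 852 CPM) and for Plxnd1 (90.0 and 129 CPM), the vessel receptor of Sema3e. Glutamatergic neurons led for Plxna4 (814 and 743 CPM), a partner of Nrp1, and for Plxna1 (48.4 and 53.1 CPM), where other GABAergic neurons overlapped at 50.4 and 47.1 CPM. Plxna3 was highest in OPC at 47.7 and 47.6 CPM.

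Plexins of the B group marked the glial classes. Plxnb1 was at 156 and 215 CPM in astrocytes and at most 2.29 CPM in the 3 neuron classes. Plxnb3 was at 176 and 193 CPM in oligodendrocytes and at 119 and 114 CPM in OPC, and at most 2.67 CPM in neurons. Plxnb2 had its highest mean in astrocytes, but on 6 UMIs that were all in Sham L (44.7 and 0.00 CPM). Plxnc1, the receptor of Sema7a, was highest in other GABAergic neurons at 102 and 101 CPM.

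Robos were foremost neuronal, but each of the glial classes carried Robo1 and Robo2. Robo1 was at 3176 and 3164 CPM in other GABAergic neurons, 2774 and 2761 CPM in medium spiny neurons and 2765 and 2581 CPM in OPC. Robo2 was highest in medium spiny neurons (1657 and 1595 CPM) in 6 of 6 libraries. Robo3, a divergent Robo of commissural axons, was at 49.5 and 46.7 CPM in glutamatergic neurons and at 9.23 and 12.2 CPM in medium spiny neurons. In all, 17 of the 37 genes had the same leading class in all 6 libraries, and free neuronal RNA was not removed from these levels.

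**Figure D1:**
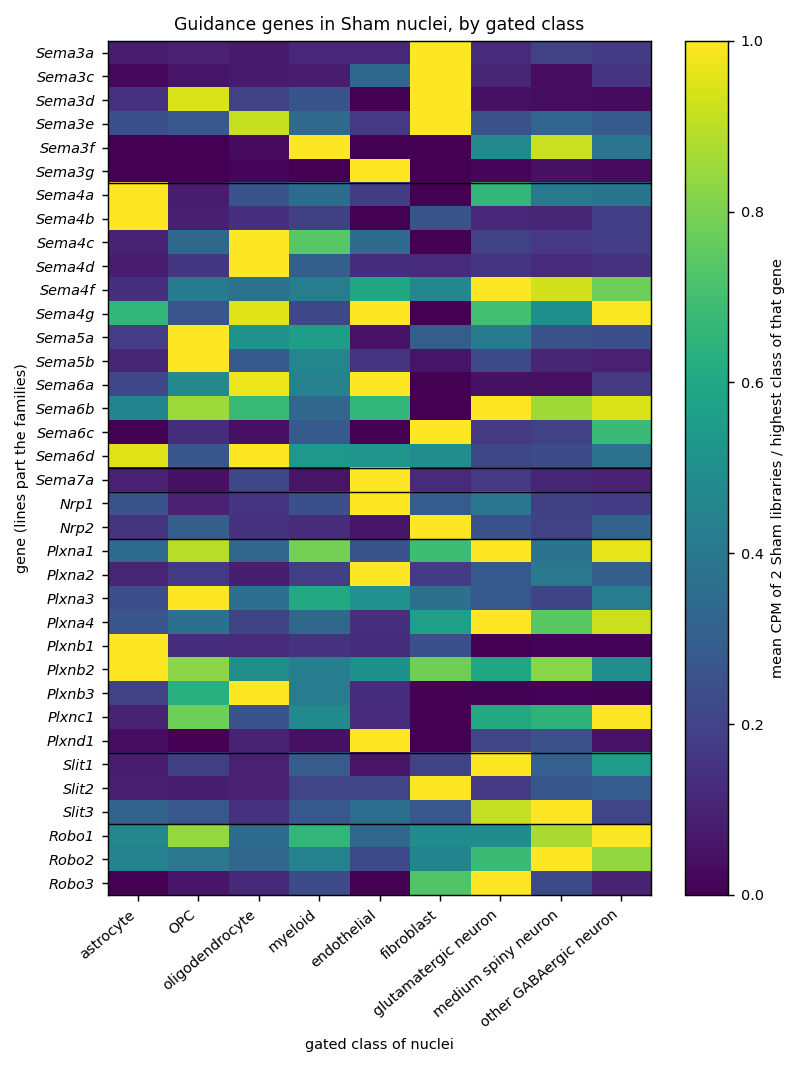
Mean Sham level of each gene (rows) in each class of nuclei (columns), as a share of the gene's highest class, for the genes with at least 20 UMIs in the Sham nuclei of these classes. Fibroblast, endothelial and glial columns hold most of the leading classes of semaphorins, and the neuron columns those of Slit1, Slit3, Plxna4 and the 3 Robos.

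The comparison of MCAO ipsi with Sham asks which of these ligands and receptors differ in the infarcted hemisphere. Of the ligands, by the calls of edgeR, Sema3c rose in 5 classes, Sema3e in OPC, Sema6a in astrocytes and Sema7a in oligodendrocytes. Sema5b fell in 3 classes of neurons, Sema7a in 2, Slit1 in medium spiny neurons, Slit3 in astrocytes and OPC, and Sema4d in oligodendrocytes. DESeq2 did not make all of these calls. Of the receptors, Nrp2 rose in astrocytes, and the calls on Robo1, Robo2, Robo3, Plxna4, Plxnb3 and Plxnd1 were falls. Of the 37 genes, 35 passed the filter on low counts in at least 1 class, giving 225 pairs of gene and class. By the quasi-likelihood test of edgeR, adjusted after Benjamini-Hochberg over all genes of a class, and at a log2 fold change of at least 0.6 either way, 29 pairs (12.9%) were called, 9 higher and 20 lower. Over all genes, 5.95% of the pairs were called, 2.7% higher and 3.25% lower. The calls fell on 15 genes in 7 of 9 classes. Secreted semaphorins gave 6 higher, all of Sema3c or Sema3e, and 0 lower among 35 pairs (median log2 fold change 0.04), and Robos gave 0 higher and 7 lower among 21 pairs (median −1.16). Slits gave 0 higher and 3 lower of 23 (median −1.002) and plexins 0 higher and 4 lower of 54 (median −0.19). Membrane semaphorins gave 1 higher and 4 lower of 70 pairs, Sema7a 1 higher and 2 lower of 5, and neuropilins 1 higher and 0 lower of 17.

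By class, the called members numbered 6 of 21 tested in astrocytes (14.5% of all genes called), 6 of 25 in OPC (10.2%), 4 of 30 in oligodendrocytes (4.28%) and 3 of 25 in myeloid nuclei (8.74%). In neurons they numbered 3 of 34 in glutamatergic (4.55%), 6 of 33 in medium spiny (6.51%) and 1 of 34 in other GABAergic neurons (1.14%). By edgeR, 0 of 9 were called in endothelial nuclei (0.242%), with 5 at an unadjusted p under 0.05 and 1 called by DESeq2. In fibroblasts 0 of 14 were called by either tool (6.12%), with 2 at an unadjusted p under 0.05. The median log2 fold change of the members was −0.31 in astrocytes, −0.40 in OPC, −0.86 in oligodendrocytes and −0.07 in glutamatergic neurons, with medians over all genes between −0.00 and 0.12 in all 9 classes. The counts depended on single libraries: they fell without Sham L or Sham R and rose without mMCAO ipsi or sMCAO ipsi. Such a fit leaves 1 library in a group and takes its spread from the other groups. These shifts are therefore not a result about the members. A smaller number of cells of a subtype and less RNA per cell cannot be told apart in these sums.

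**Figure D2:**
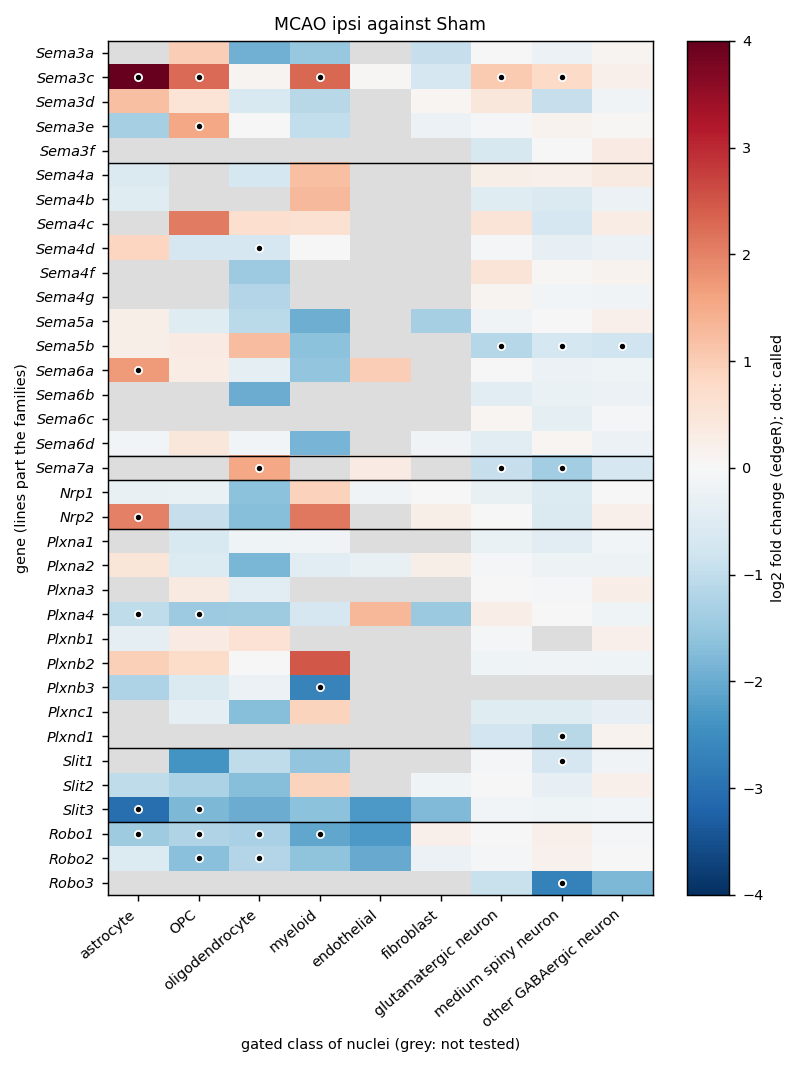
Log2 fold change of MCAO ipsi against Sham for each gene (rows) and class of nuclei (columns), with red for higher and blue for lower in MCAO ipsi, grey where the gene was not tested, and a dot for each of the 29 called pairs. Sema3c carries 5 dots on the higher side, and Robo1 4 on the lower side.

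Sema3c, a secreted semaphorin that binds both neuropilins, rose in 5 of the 9 classes in which it was tested. Astrocyte nuclei showed the steepest rise. Their levels were 7.45 and 10.2 CPM in Sham, 14.9 and 4.91 CPM in MCAO contra, and 124 and 180.0 CPM in MCAO ipsi. Both infarcted hemispheres were thus far above the other 4 libraries, which together held 8 UMIs of the gene (1, 1, 5 and 1), against 66 and 152 UMIs in MCAO ipsi. The fitted log2 fold change was 4.01 ± 0.62 (SE from the F statistic, 6 libraries) with an adjusted p of 0.000652 by edgeR. Since Sham held 2 UMIs, the ratio of the CPM of summed UMIs is the better guide to its size, at 18.4 with a 95% counting interval of 5.02 to 153. Against MCAO contra the log2 fold change was 3.70 ± 0.44 (edgeR adjusted p = 0.000191) and the ratio 14.2, with a counting interval of 6.43 to 39.2. Without mMCAO contra it was 4.83 on the log2 scale, and neither call was lost without any 1 library.

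The UMIs were spread over many astrocyte nuclei and not held by a few. In mMCAO ipsi 40 of 378 astrocyte nuclei had at least 1 UMI of Sema3c (10.6%, exact 95% interval 7.67 to 14.1) and in sMCAO ipsi 53 of 343 (15.5%, 11.8 to 19.7), against 0.488% to 1.29% in the other 4 libraries. Nuclei of MCAO ipsi were deeper, with a median of 1263 and 2047 UMIs against 618 to 1007 UMIs. After every nucleus had been thinned to 500 UMIs the shares were 4.32% and 5.69% in MCAO ipsi and 0.318% to 0.635% elsewhere. Oligodendrocytes, in which Sema3c was not called, stood at 0.83% to 1.70% after thinning in all 6 libraries. Fibroblast RNA overlapped between the groups: the 5 fibroblast markers held out of the gates summed to 112 and 31.0 CPM in Sham and to 79.2 and 116 CPM in MCAO ipsi. Myeloid nuclei of MCAO ipsi carried Sema3c too. The part of RNA from fibroblasts, myeloid cells or other cells in the astrocyte rise was not tested.

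OPC followed the astrocytes. Sema3c was at 35.8 and 9.52 CPM in Sham, 11.3 and 24.8 CPM in MCAO contra, and 110.1 and 149.9 CPM in MCAO ipsi, with no overlap between MCAO ipsi and the rest. The log2 fold change was 2.28 ± 0.48 against Sham (edgeR adjusted p = 0.00648) and 2.86 ± 0.39 against MCAO contra (adjusted p = 0.00038). Without Sham R, which held 1 UMI, the first was 1.77 with an adjusted p of 0.0666, and without Sham L it was 3.68. The second call was kept without any 1 library.

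Neurons had the gene already in Sham and rose less. In glutamatergic neurons it went from 38.9 and 42.6 CPM in Sham to 72.0 and 108 CPM in MCAO ipsi, with 35.3 and 29.1 CPM in MCAO contra (log2 fold change 1.04 ± 0.16, edgeR adjusted p = 0.0109 against Sham, and 1.48 ± 0.17, adjusted p = 0.0046 against MCAO contra). Medium spiny neurons had 11.7 and 12.9 CPM in Sham, 6.88 and 10.4 CPM in MCAO contra and 23.2 and 20.02 CPM in MCAO ipsi. Here the log2 fold change was 0.78 ± 0.22 against Sham (edgeR adjusted p = 0.0392) and 1.39 ± 0.24 against MCAO contra (adjusted p = 0.00675). The call against Sham was not made by DESeq2 (adjusted p = 0.257) or under a stricter gate (0.57, edgeR adjusted p = 0.114). Groups did not overlap in either class of neurons. The astrocyte rise was larger than that of glutamatergic neurons by 3.14 ± 0.72 on the log2 scale (edgeR interaction fit, adjusted p = 0.000487), while OPC and glutamatergic neurons were not told apart (1.27, adjusted p = 0.157), nor were astrocytes and OPC (1.75, adjusted p = 0.561). The glutamatergic calls were lost without either Sham library (adjusted p = 0.19 and 0.0961) or either MCAO contra library (0.0814 and 0.0752), and the medium spiny call against Sham without Sham L, Sham R or mMCAO ipsi (0.236, 0.129 and 0.162).

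Myeloid nuclei were called as well, at 47.9 and 12.9 CPM in Sham, 112 and 103 CPM in MCAO contra and 154 and 215 CPM in MCAO ipsi (log2 fold change 2.28 ± 0.47, edgeR adjusted p = 0.0364). This call was lost without Sham L (3.66, adjusted p = 0.237), Sham R (1.76, 0.193), mMCAO contra (0.0888) or sMCAO contra (0.0966), and with the held-out markers as gates (1.53, 0.193). The held-out myeloid markers of these nuclei rose in the same order, and the part of that in the difference was not tested. Fibroblasts, the class with the highest Sham level, were not called, with 227 and 560 CPM in Sham, 154 and 242 CPM in MCAO contra and 425 and 137 CPM in MCAO ipsi. Endothelial nuclei ranged from 129 to 208 CPM over the 6 libraries and oligodendrocytes from 17.9 to 37.4 CPM.

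**Figure D3:**
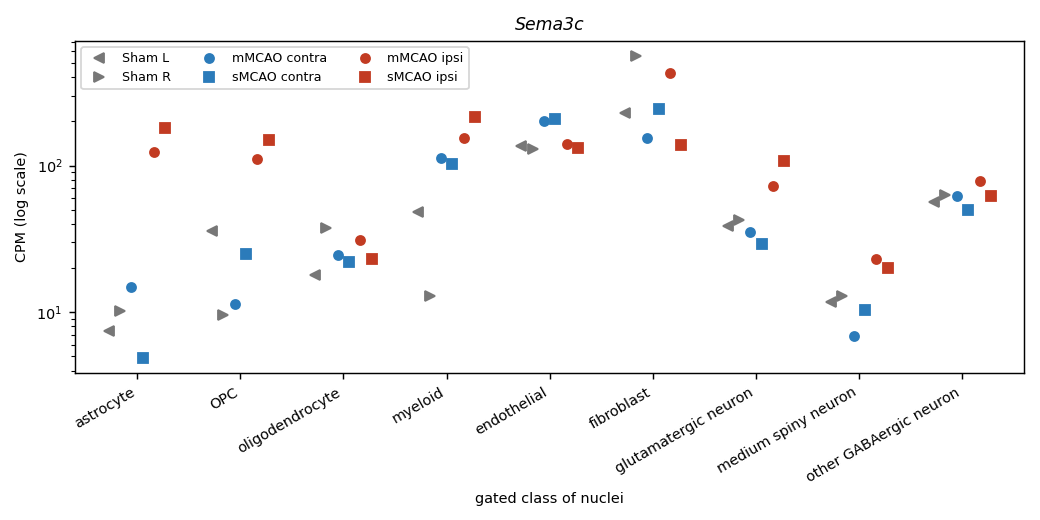
Sema3c level (CPM of the class and library, log axis) in each of the 6 libraries for 9 classes of nuclei, 1 point per library and class. In astrocytes the MCAO ipsi points lie at 124 and 180.0 CPM against 4.91 to 14.9 CPM in the other libraries, while the fibroblast points of the 3 groups overlap.

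Sema3e, which signals through Plxnd1 without a neuropilin, rose in OPC. Levels were 113 and 76.2 CPM in Sham, 94.9 and 99.0 CPM in MCAO contra, and 289.5 and 325 CPM in MCAO ipsi. Both MCAO ipsi libraries were above the other 4, by a log2 fold change of 1.56 ± 0.26 against Sham (edgeR adjusted p = 0.00139) and 1.57 ± 0.21 against MCAO contra (adjusted p = 0.000328). Leaving out any 1 library kept both calls, but with the held-out markers used as gates both were lost, at 1.40 against Sham (adjusted p = 0.129) and 0.80 against MCAO contra (0.183). Thinned to 500 UMIs, 12.5% and 11.8% of the OPC nuclei of MCAO ipsi had a UMI of Sema3e, against 3.31% to 5.37% in the other libraries. Astrocytes did not share the rise, with 89.3 and 81.7 CPM in Sham and 46.8 and 28.4 CPM in MCAO ipsi, and the difference between the 2 classes was −2.88 ± 0.54 (edgeR interaction fit, adjusted p = 0.000264).

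The promoters of these 2 genes and of Slit3, the secreted ligand with the largest called fall, are shown because they are the secreted ligands with the largest called changes against Sham. Each is the stretch of 250 bases before the RefSeq gene start in the assembly GRCr8, which is not the build of the counts, and capitals mark matches to ACGTG on either strand. Sema3c (chr4:18699628-18699877, minus strand, 35.2% GC) had no match, Sema3e (chr4:21510375-21510624, minus strand, 55.6% GC) had 3, of which 2 overlap, and Slit3 (chr10:20075679-20075928, plus strand, 69.2% GC) had 1.
Sema3c: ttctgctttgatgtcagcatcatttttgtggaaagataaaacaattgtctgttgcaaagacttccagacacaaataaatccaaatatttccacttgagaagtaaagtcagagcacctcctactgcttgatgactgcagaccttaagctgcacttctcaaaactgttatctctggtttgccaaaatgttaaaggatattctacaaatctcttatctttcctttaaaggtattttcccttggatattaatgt
Sema3e: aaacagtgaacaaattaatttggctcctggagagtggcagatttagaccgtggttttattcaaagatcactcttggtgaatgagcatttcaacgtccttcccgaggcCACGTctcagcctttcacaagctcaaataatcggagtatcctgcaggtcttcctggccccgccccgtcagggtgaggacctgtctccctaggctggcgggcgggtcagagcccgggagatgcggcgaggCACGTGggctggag
Slit3: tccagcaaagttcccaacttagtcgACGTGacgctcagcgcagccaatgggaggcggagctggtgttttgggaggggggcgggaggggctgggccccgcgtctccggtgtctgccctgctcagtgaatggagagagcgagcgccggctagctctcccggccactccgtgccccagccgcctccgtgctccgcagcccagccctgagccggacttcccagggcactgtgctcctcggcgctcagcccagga
ACGTG, the core of the hypoxia response element, was found in 16.9% of 27457 rat promoters of the same length and in 5 of the 27 promoters found for the 37 genes. TGACTCA, bound by AP-1, was in 3.98% of all promoters and in 0 of the 27, and TTCNNNGAA, a STAT motif, in 7.52% and in 0 of the 27. A match describes letters and not a bound site.

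2 further genes rose in astrocytes. Nrp2, the neuropilin that binds Sema3c and Sema3f, was at 29.8 and 30.6 CPM in Sham, 44.6 and 73.6 CPM in MCAO contra and 116 and 144 CPM in MCAO ipsi. The values of the 3 groups did not overlap, and the log2 fold change was 2.02 ± 0.45 against Sham (edgeR adjusted p = 0.00689) and 1.16 ± 0.30 against MCAO contra (adjusted p = 0.0222). Sham held 4 and 3 UMIs of it, and the first call was lost without Sham L (2.05, adjusted p = 0.108) or Sham R (2.08, 0.0638), the second without mMCAO contra (0.79, 0.317). OPC had 35.8 and 85.7 CPM of Nrp2 in Sham and 26.5 and 34.3 CPM in MCAO ipsi, and the changes of the 2 classes differed by 3.00 ± 0.70 (edgeR interaction fit, adjusted p = 0.00457). By DESeq2 neither Nrp2 call in astrocytes was made (adjusted p = 0.0551 and 0.307), and with free neuronal RNA subtracted that against MCAO contra was lost (edgeR adjusted p = 0.0577).

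Sema6a, a transmembrane ligand of the A plexins, was at 52.1 and 112 CPM in Sham, 143 and 231 CPM in MCAO contra and 228 and 311 CPM in MCAO ipsi. Both MCAO groups lay above Sham and overlapped each other. The rise against Sham was 1.70 ± 0.38 (edgeR adjusted p = 0.00677), and that against MCAO contra did not pass the test (0.53 ± 0.27, adjusted p = 0.232). Without Sham L it was 1.23 (adjusted p = 0.175), without Sham R 2.33, and with the held-out markers as gates 1.18 (0.121).

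Among the Slits and Robos, Slit3, Robo1 and Robo2 had called falls in glia against Sham, Slit3 and Robo2 in only some of the glial classes. Slit3 in astrocytes was at 216 and 552 CPM in Sham, 158 and 98.2 CPM in MCAO contra, and 65.5 and 35.5 CPM in MCAO ipsi. All 3 groups were apart, and the log2 fold change was −3.01 ± 0.41 against Sham (edgeR adjusted p = 0.000271) and −1.496 ± 0.42 against MCAO contra (adjusted p = 0.0298). Without Sham R, the highest library, the first was −2.19 and still called, and without mMCAO contra the second was −1.05 (adjusted p = 0.353). By DESeq2 Slit3 was not called against MCAO contra in astrocytes (adjusted p = 0.113) or OPC (0.124). In OPC Slit3 was at 309.9 and 343 CPM in Sham, 178 and 216 CPM in MCAO contra, and 137 and 69.6 CPM in MCAO ipsi (−1.81 ± 0.29, edgeR adjusted p = 0.00134, and −1.09 ± 0.27, adjusted p = 0.0167). The call against Sham was lost under a stricter gate (−1.18, adjusted p = 0.101) and with the held-out markers as gates (−0.23, 0.908), and that against MCAO contra with these gates (−1.10, 0.0507) or without mMCAO contra (0.0907), sMCAO contra (0.082) or sMCAO ipsi (−0.57, 0.183).

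Robo1, a receptor for the Slits, fell in 4 classes. In astrocytes it was at 1258 and 1685 CPM in Sham, 904 and 1139 CPM in MCAO contra, and 769 and 393 CPM in MCAO ipsi, a log2 fold change of −1.43 ± 0.29 against Sham (edgeR adjusted p = 0.00398) and −0.86 ± 0.28 against MCAO contra (adjusted p = 0.0619). In OPC it was at 2765 and 2581 CPM in Sham, 2585 and 2139 CPM in MCAO contra, and 1537 and 915 CPM in MCAO ipsi (−1.21 ± 0.22, edgeR adjusted p = 0.00282, and −1.05 ± 0.22, adjusted p = 0.00628). OPC of MCAO ipsi thus stood below both other groups, which overlapped. In oligodendrocytes the levels were 1026 and 1199.8 CPM in Sham, 669 and 822 CPM in MCAO contra, and 564 and 346 CPM in MCAO ipsi (−1.30 ± 0.23, edgeR adjusted p = 0.0305). Myeloid nuclei went from 2087 and 2073 CPM in Sham to 767 and 363 CPM in MCAO ipsi (−2.08 ± 0.44, edgeR adjusted p = 0.0364). The astrocyte call was lost without Sham R (−1.17, adjusted p = 0.0798), the OPC call against MCAO contra without mMCAO contra (−0.88, 0.119), and the oligodendrocyte and myeloid calls without either library of Sham or MCAO contra (adjusted p = 0.0801 to 0.237).

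Robo2 had the same direction in OPC and oligodendrocytes, and in astrocytes it was not called in either comparison. Its change in astrocytes exceeded that in OPC by 1.28 ± 0.33 (edgeR interaction fit, adjusted p = 0.0122). In OPC it was at 697 and 590.4 CPM in Sham, 411 and 516 CPM in MCAO contra, and 312 and 134 CPM in MCAO ipsi (−1.67 ± 0.31, edgeR adjusted p = 0.00271, and −1.20 ± 0.29, adjusted p = 0.0142). The first was −1.52 without Sham L (adjusted p = 0.0612), −2.38 without mMCAO ipsi and −1.09 without sMCAO ipsi, and the second was lost without mMCAO contra (0.072) or sMCAO contra (0.0689). In oligodendrocytes Robo2 was at 522 and 547 CPM in Sham and at 315 and 170.2 CPM in MCAO ipsi (−1.16 ± 0.25, edgeR adjusted p = 0.0444), a call lost without any 1 library of Sham or MCAO contra (adjusted p = 0.103 to 0.259). Endothelial nuclei had 360.1 and 362 CPM in Sham, 463 and 1019 CPM in MCAO contra, and 139 and 63.9 CPM in MCAO ipsi. There the fall against MCAO contra passed the test (−3.07 ± 0.49, edgeR adjusted p = 0.0176) and that against Sham did not (−2.01 ± 0.54, adjusted p = 0.0981). The call was kept without any 1 library, at −2.42 without sMCAO contra and −2.30 without sMCAO ipsi, and lost with the held-out markers as gates (−2.22, adjusted p = 0.199). It was also lost with nuclei of several gates kept (edgeR adjusted p = 0.0973), a lower neuron cut (0.228) or only the 2 groups fitted (0.0861). The neuronal share of endothelial UMIs was 18.9% and 18.9% in MCAO contra and 9.94% and 3.63% in MCAO ipsi, and its part in the fall was not tested.

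Plxna4, a receptor component for Sema3a, also had lower values in glia. In OPC it was at 280.1 and 286 CPM in Sham, 217 and 194 CPM in MCAO contra, and 143 and 85.7 CPM in MCAO ipsi (−1.44 ± 0.27, edgeR adjusted p = 0.00305, and −1.01 ± 0.24, adjusted p = 0.0124). In astrocytes it was at 216 and 194 CPM in Sham, 163 and 201 CPM in MCAO contra, and 112 and 104 CPM in MCAO ipsi (−1.02 ± 0.26, edgeR adjusted p = 0.0156, and −0.79 ± 0.23, adjusted p = 0.0356). Groups of MCAO ipsi and Sham did not overlap in either class. By DESeq2 Plxna4 was not called in astrocytes against Sham (adjusted p = 0.1325) or MCAO contra (0.351), nor in OPC against MCAO contra (0.146). The astrocyte call against Sham was lost without Sham L (adjusted p = 0.22), Sham R (0.09) or sMCAO ipsi (0.072), and the OPC call without Sham L (0.0584). Against MCAO contra the astrocyte call was lost without Sham L (0.0513), either MCAO contra library (0.0885 and 0.248) or sMCAO ipsi (0.172), and the OPC call without mMCAO contra (0.178) or sMCAO ipsi (−0.60, 0.14). Plxnb3, called lower in myeloid nuclei, went from 105 and 51.5 CPM in Sham to 20.2 and 9.78 CPM in MCAO ipsi (−2.68 ± 0.69, edgeR adjusted p = 0.0478), a call lost without any 1 library of Sham or MCAO contra (0.0964 to 0.357). The 10 held-out oligodendrocyte markers of these nuclei summed to 2298 and 1725 CPM in Sham and to 963 and 554 CPM in MCAO ipsi, and their part in the fall was not tested.

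These falls moved with the neuronal RNA in the same nuclei, whose share was 29.4% and 27.7% in OPC of Sham and 16.7% and 10.5% in OPC of MCAO ipsi, and 21.3% and 20.5% against 10.2% and 3.26% in oligodendrocytes. The part of neuronal RNA in these falls was not tested. For each of Robo1, Robo2, Slit3 and Plxna4 a class of neurons had the highest Sham level, and in neurons none of them was called in MCAO ipsi against Sham: the log2 fold changes were 0.01, −0.05, −0.12 and 0.27 in glutamatergic neurons and 0.22, 0.18, −0.16 and 0.01 in medium spiny neurons. When the neuronal profile of each library was subtracted, Robo1 kept its calls in OPC, at −1.47 against Sham and −1.33 against MCAO contra, and in astrocytes at −1.62 (edgeR adjusted p = 0.048). Slit3 in astrocytes then had too few UMIs to be tested, and in OPC it was at −7.86 against Sham (adjusted p = 0.029) and 0.00 against MCAO contra. Plxna4 in astrocytes turned to 1.29 (adjusted p = 0.545), and Robo2 in OPC was at −3.14 against Sham (adjusted p = 0.022) and −2.29 against MCAO contra (adjusted p = 0.0646). Plxna4 in OPC kept both calls (−4.91, edgeR adjusted p = 0.00718, and −4.27, adjusted p = 0.00849), and Robo2 in oligodendrocytes lost its call (−1.04, adjusted p = 0.0693). Counts that the subtraction took below 0 were set to 0. Fold changes as large as −7.86, −4.91 or −4.27 therefore do not give the size of a fall. With the held-out markers used as gates instead, Robo1 in OPC was at −0.53 against Sham and no longer called (adjusted p = 0.0636), and against MCAO contra Robo2 (−0.67, 0.142) and Plxna4 (−0.37, 0.681) in OPC were not called either, nor against Sham Robo2 in oligodendrocytes (−1.06, 0.0613) and Robo1 in myeloid nuclei (−1.51, 0.152).

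Sema7a went opposite ways in oligodendrocytes and neurons. In oligodendrocytes it was at 39.0 and 43.2 CPM in Sham, 40.7 and 44.3 CPM in MCAO contra, and 87.9 and 144 CPM in MCAO ipsi (1.54 ± 0.29, edgeR adjusted p = 0.0366, and 1.47 ± 0.26, adjusted p = 0.113). The 4 libraries outside the infarct lay within 39.0 to 44.3 CPM, and thinned to 500 UMIs 4.17% and 6.54% of oligodendrocyte nuclei of MCAO ipsi had a UMI against 1.81% to 2.48% elsewhere. In glutamatergic neurons it was at 32.0 and 32.7 CPM in Sham, 36.7 and 40.5 CPM in MCAO contra, and 19.5 and 15.4 CPM in MCAO ipsi (−0.93 ± 0.13, edgeR adjusted p = 0.0082, and −1.07 ± 0.13, adjusted p = 0.00592). Medium spiny neurons had 24.0 and 17.7 CPM in Sham, 19.0 and 23.1 CPM in MCAO contra, and 10.2 and 5.96 CPM in MCAO ipsi (−1.40 ± 0.28, edgeR adjusted p = 0.00528, and −1.34 ± 0.28, adjusted p = 0.0181). The change in oligodendrocytes exceeded that in glutamatergic neurons by 2.37 ± 0.34 (edgeR interaction fit, adjusted p = 0.00231) and that in medium spiny neurons by 3.02 ± 0.42 (adjusted p = 0.00889). The oligodendrocyte call was lost without any 1 library of Sham (adjusted p = 0.254 and 0.232) or MCAO contra (0.0878 and 0.0874), the glutamatergic calls without any library of the control group (0.0752 to 0.165), and the medium spiny calls without Sham L (0.0807), sMCAO contra (0.0594) or sMCAO ipsi (0.0898) or with the held-out markers as gates (0.108 and 0.123).

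Oligodendrocytes also had lower Sema4d, a ligand they lead for. It was at 447 and 478 CPM in Sham, 475 and 403 CPM in MCAO contra, and 312 and 273 CPM in MCAO ipsi (−0.66 ± 0.15, edgeR adjusted p = 0.0498). This call was kept without mMCAO ipsi and lost without each of the other libraries. It was also lost with the held-out markers as gates (−0.48, edgeR adjusted p = 0.188) or a stricter gate (−0.66, 0.0555). By DESeq2 it was not made (−0.67, adjusted p = 0.112). Sema5b in the same nuclei was at 60.1 and 118 CPM in Sham and at 117 and 266 CPM in MCAO ipsi and did not pass the test.

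In neurons, the called changes other than Sema3c were falls. Sema5b, in glutamatergic neurons, was at 69.1 and 68.2 CPM in Sham, 56.8 and 56.1 CPM in MCAO contra, and 28.3 and 38.7 CPM in MCAO ipsi (−1.14 ± 0.12, edgeR adjusted p = 0.00306, and −0.74 ± 0.12, adjusted p = 0.0124). In medium spiny neurons it was at 36.3 and 29.9 CPM in Sham, 30.8 and 23.1 CPM in MCAO contra and 21.2 and 20.4 CPM in MCAO ipsi (−0.71 ± 0.19, edgeR adjusted p = 0.0278). Other GABAergic neurons had 29.4 and 28.1 CPM in Sham, 22.3 and 22.7 CPM in MCAO contra and 18.7 and 14.8 CPM in MCAO ipsi (−0.80 ± 0.16, edgeR adjusted p = 0.0322). All 3 classes of neurons thus had lower Sema5b in MCAO ipsi than in Sham. MCAO contra lay in between in glutamatergic and other GABAergic neurons, and overlapped Sham in medium spiny neurons. By DESeq2 Sema5b was not called against Sham in medium spiny (adjusted p = 0.145) or other GABAergic neurons (0.132). The call in glutamatergic neurons was lost without Sham L (adjusted p = 0.109) or Sham R (0.0613), that in other GABAergic neurons without any 1 library of Sham or MCAO contra (0.0524 to 0.486), and that in medium spiny neurons without Sham L (−0.55, 0.253), mMCAO ipsi (0.0569) or sMCAO ipsi (0.1) or with the held-out markers as gates (−0.68, 0.223). Against MCAO contra, the glutamatergic call was lost without any 1 library but sMCAO ipsi, by the adjusted p (0.0577 to 0.162) or, without mMCAO ipsi, by the size of the fall (−0.55), and with the held-out markers as gates it was −0.31 (0.321).

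Plxnd1, the receptor of Sema3e, fell in medium spiny neurons, from 28.3 and 26.3 CPM in Sham and 28.1 and 29.5 CPM in MCAO contra to 11.4 and 14.9 CPM in MCAO ipsi. The log2 fold change was −1.10 ± 0.19 against Sham (edgeR adjusted p = 0.00217) and −1.11 ± 0.19 against MCAO contra (adjusted p = 0.00648), and leaving out any 1 library kept both calls, while the held-out markers as gates did not (−0.97, adjusted p = 0.0848, and −0.92, 0.135). In glutamatergic neurons it was at 23.9 and 21.6 CPM in Sham, 30.4 and 31.5 CPM in MCAO contra and 17.6 and 8.80 CPM in MCAO ipsi, called against MCAO contra (−1.10 ± 0.24, edgeR adjusted p = 0.0354) and not against Sham (−0.77 ± 0.25, adjusted p = 0.0892). That call was lost without any 1 library of Sham or MCAO contra (adjusted p = 0.0995 to 0.231) or with the held-out markers as gates (−0.99, 0.0702). The severe library was the lower one in glutamatergic neurons, at 0.50 of the moderate one (counting interval 0.38 to 0.65).

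Robo3 fell in medium spiny neurons on few UMIs: 45 and 54 in Sham, 34 and 39 in MCAO contra, and 5 and 3 in MCAO ipsi, or 9.23 and 12.2, 6.88 and 11.9, and 2.04 and 1.28 CPM. The 3 UMIs of sMCAO ipsi came from 1 nucleus. The log2 fold change was −2.70 ± 0.46 against Sham (edgeR adjusted p = 0.00208), kept without any 1 library, and −2.39 ± 0.49 against MCAO contra (adjusted p = 0.0153), lost without sMCAO contra or sMCAO ipsi (0.0594 and 0.0593). Both were lost with the held-out markers as gates (−1.58, 0.0987, and −1.56, 0.14). Slit1 in the same neurons was at 63.4 and 64.1 CPM in Sham, 35.4 and 47.5 CPM in MCAO contra, and 40.3 and 41.3 CPM in MCAO ipsi. It differed between MCAO ipsi and Sham (−0.68 ± 0.14, edgeR adjusted p = 0.00703) and did not pass the test between MCAO ipsi and MCAO contra (0.02 ± 0.15, adjusted p = 0.963), and the first call was lost without Sham L (0.0658) or with the held-out markers as gates (−0.39, 0.235). Both hemispheres of the MCAO rats were thus below Sham for Slit1.

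**Figure D4:**
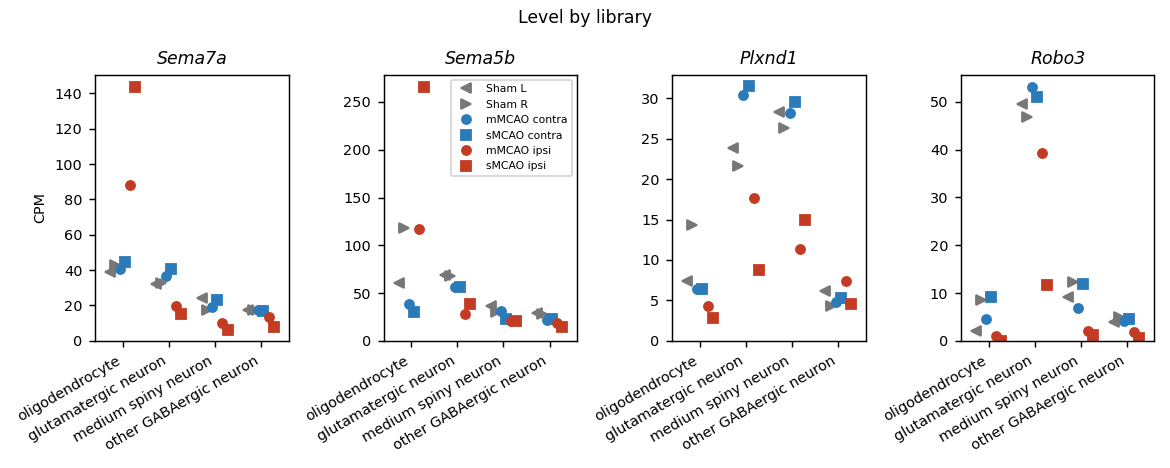
Level (CPM) of Sema7a, Sema5b, Plxnd1 and Robo3 in oligodendrocytes and in the 3 classes of neurons, 1 point per library, coloured by group. Sema7a in MCAO ipsi lies above the other libraries in oligodendrocytes (87.9 and 144 CPM) and below them in glutamatergic neurons (19.5 and 15.4 CPM).

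The comparison of the 2 hemispheres of the same MCAO rats asks what differs on the infarcted side alone. Over all 9 classes, 24 of 225 pairs (10.7%) were called in MCAO ipsi against MCAO contra, 6 higher and 18 lower, against 2.97% over all genes, 1.51% higher and 1.46% lower. They fell on 16 genes in 5 classes, with 6 of 21 in astrocytes (12.3% of all genes), 8 of 25 in OPC (10.6%), 5 of 34 in glutamatergic neurons (2.8%), 4 of 33 in medium spiny neurons (2.21%) and 1 of 9 in endothelial nuclei (1.69%). DESeq2 called fewer in astrocytes (1 higher and 0 lower) and OPC (2 higher and 3 lower). In glutamatergic neurons it gave 1 higher and 4 lower, and in medium spiny neurons 1 higher and 2 lower. Endothelial nuclei had 0 higher and 3 lower by DESeq2. By edgeR, 0 were called in oligodendrocytes (0.0%), myeloid nuclei (0.0%), fibroblasts (0.527%) and other GABAergic neurons (0.128%), with 12, 9, 2 and 13 at an unadjusted p under 0.05 and 2, 0, 0 and 0 called by DESeq2. The count fell without mMCAO contra or sMCAO contra and rose without mMCAO ipsi, in fits that leave 1 library in a group. This comparison shares the MCAO ipsi libraries with the one against Sham, so the 2 are not independent.

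Some genes were called in this comparison and not in the one against Sham, all of them lower. Sema4b in astrocytes was at 98.1 and 123 CPM in MCAO contra and 50.5 and 54.5 CPM in MCAO ipsi, with 74.5 and 61.3 CPM in Sham (−1.09 ± 0.28, edgeR adjusted p = 0.0202). Nrp1 in astrocytes was at 122 and 152 CPM in MCAO contra and 67.4 and 66.3 CPM in MCAO ipsi, with 74.5 and 81.7 CPM in Sham (−1.06 ± 0.26, edgeR adjusted p = 0.0154). For both genes, MCAO contra was the group that stood above the others. By DESeq2 neither call was made (adjusted p = 0.275 for Sema4b and 0.229 for Nrp1). The Sema4b call was lost without mMCAO contra (adjusted p = 0.0777) or sMCAO contra (0.161), and the Nrp1 call without these (0.0563 and 0.137) or sMCAO ipsi (0.0607) or with the held-out markers as gates (−0.88, 0.0512).

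OPC showed the same for Sema5a, with 669 and 711 CPM in MCAO contra, 471 and 312 CPM in MCAO ipsi and 548 and 476 CPM in Sham (−0.93 ± 0.20, edgeR adjusted p = 0.00726). Slit2 in OPC was at 111 and 74.3 CPM in MCAO contra, 55.0 and 17.1 CPM in MCAO ipsi and 83.4 and 57.1 CPM in Sham (−1.68 ± 0.42, edgeR adjusted p = 0.0168). By DESeq2 Slit2 was not called (adjusted p = 0.164). Sema3f, the preferred ligand of Nrp2, was at 12.0 and 11.2 CPM in MCAO contra, 5.88 and 5.17 CPM in MCAO ipsi and 8.65 and 8.08 CPM in Sham in glutamatergic neurons (−1.02 ± 0.17, edgeR adjusted p = 0.0146). In all 3 cases MCAO ipsi did not overlap MCAO contra, and each of these calls was lost without at least 1 library: Sema5a without mMCAO contra (adjusted p = 0.0791) and with the held-out markers as gates (−0.09, 0.867), Slit2 without mMCAO contra (−1.27, 0.312) or sMCAO ipsi (−0.86, 0.107), and Sema3f without any 1 library of Sham or MCAO contra (0.058 to 0.178) or with these gates (−0.57, 0.0652).

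MCAO contra against Sham asks whether the hemisphere away from the infarct differed, and few of these genes were called. With 2 libraries in each group, genes that were not called can still differ. Called were 3 of 225 pairs (1.33%), all lower, against 0.161% over all genes, 0.0508% higher and 0.11% lower. They were 1 of 34 in glutamatergic neurons (0.0145% of all genes) and 2 of 33 in medium spiny neurons (0.908%), with 0 of 34 in other GABAergic neurons by either tool (0.0558%), where 6 had an unadjusted p under 0.05. In oligodendrocytes 0 were called, yet the median log2 fold change of the members was −0.54, against −0.01 over all genes. In the other classes the member median lay between −0.24 (myeloid) and 0.25 (endothelial). Nrp1 in glutamatergic neurons was at 118 and 116 CPM in Sham and 73.6 and 79.8 CPM in MCAO contra (−0.73 ± 0.07, edgeR adjusted p = 0.0244). Nrp2 in medium spiny neurons was at 41.2 and 38.3 CPM in Sham and 24.9 and 20.1 CPM in MCAO contra (−0.86 ± 0.14, edgeR adjusted p = 0.0115), and Slit1 in the same neurons, with the values above, changed by −0.70 ± 0.13 (adjusted p = 0.0159). All 3 calls were lost without Sham L or Sham R, with an adjusted p of 0.109 to 0.855. With the held-out markers as gates Nrp2 was at 0.0257 (adjusted p = 0.975) and Slit1 at −0.22 (0.676). By DESeq2 neither call in medium spiny neurons was made (adjusted p = 0.0563 for Nrp2 and 0.0955 for Slit1).

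In vessels and meninges none of the receptors and ligands that mark these classes was called against Sham. Endothelial Plxna2 was at 923 and 852 CPM in Sham and 778 and 675 CPM in MCAO ipsi, and endothelial Nrp1 at 315 and 284 CPM in Sham and 290.2 and 258 CPM in MCAO ipsi. Endothelial Sema7a was at 180.0 and 207 CPM in Sham and 244 and 239 CPM in MCAO ipsi. The 2 groups overlapped for Nrp1 and not for Plxna2 and Sema7a, on 41 to 256 endothelial nuclei per library. They did not overlap for 7 of the 9 endothelial members tested. The share of all endothelial genes without overlap was not counted, so this is not a result about the members. Of all genes, 0.242% were called in this class. Fibroblast Nrp2 was at 227 and 175 CPM in Sham and 215 and 250.3 CPM in MCAO ipsi, and fibroblast Sema3a at 499 and 420 CPM in Sham and 367 and 152 CPM in MCAO ipsi, without overlap for Sema3a. On counts simulated from these sums, 4-fold changes were recovered in 78.6% of the cases in endothelial nuclei and 52.7% in fibroblasts, and 2-fold changes in 12.7% and 7.48%, so changes in these classes can be missed.

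Moderate and severe infarctions gave the same direction for the main changes, with 1 library each and hence no test. Sema3c in sMCAO ipsi was 1.46 times that of mMCAO ipsi in astrocytes (counting interval 1.08 to 1.98), 1.36 times in OPC (0.99 to 1.90) and 1.495 times in glutamatergic neurons (1.37 to 1.63). Sema7a in oligodendrocytes was 1.64 times as high (1.27 to 2.13). Robo1 was at 0.51 of the moderate level in astrocytes (0.44 to 0.59). These intervals hold counting error alone.

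Genes that work with these ligands and receptors were looked at as 3 lists. Of the co-receptors and other ligands (23 genes, 116 pairs tested), 10 pairs were higher and 19 lower in MCAO ipsi against Sham, beside the 2.7% higher and 3.25% lower over all genes given above. Nell1, a secreted relative of the Robo3 ligand Nell2, fell in 5 classes, among them medium spiny neurons (−0.66, edgeR adjusted p = 0.000392), and Nell2 fell in 4 classes outside the neurons. Nell2 was at 702 and 696 CPM in glutamatergic neurons of Sham, where it was not called (0.12), and the neuronal share of fibroblast UMIs was 34.7% and 35.4% in Sham and 9.28% and 4.65% in MCAO ipsi, with lower shares in MCAO ipsi in the glia as well. Nrcam, an adhesion molecule that joins neuropilin complexes, rose in astrocytes (0.81, edgeR adjusted p = 0.0149) and fell in medium spiny neurons (−0.64, adjusted p = 0.000931), myeloid nuclei and fibroblasts. Of the intracellular effectors (38 genes, 271 pairs), 5 were higher and 8 lower, in both directions a smaller share than over all genes. Mical2, an actin oxidase of the family that acts below plexins, fell in all 3 classes of neurons (−0.60, −1.17 and −0.73), and Farp1 in medium spiny neurons (−1.59). Dpysl3, a collapsin response mediator, rose in astrocytes (2.40, edgeR adjusted p = 0.0241) and glutamatergic neurons (0.93, adjusted p = 0.0194). Of the netrin family (14 genes, 74 pairs), 1 was higher and 13 lower. Unc5d, a netrin receptor, fell in astrocytes (−2.86) and OPC (−2.11), Dscam in astrocytes, fibroblasts and medium spiny neurons (−1.59), and Unc5c in astrocytes and myeloid nuclei. The part of the neuronal RNA in the falls of Nell1, Nell2, Unc5d, Dscam and Unc5c outside neurons was not tested. Against MCAO contra the first 2 lists gave 4 higher and 8 lower of 116 pairs, and 7 higher and 4 lower of 271. The netrin family gave 1 higher and 7 lower of 74. Over all genes, 1.51% of the pairs were higher and 1.46% lower in that comparison.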

How the data were processed

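The authors aligned the reads of a droplet-based 5' kit to the rat genome with Cell Ranger 7.0.0 (mRatBN7.2 in the processing notes), intronic reads included, and deposited raw UMI counts per gene and nucleus, before their removal of free RNA and doublets. Nuclei with at least 500 UMIs, 250 to 5000 genes and at most 5% mitochondrial UMIs were kept. No doublet caller was run. A nucleus entered a non-neuronal class at 3 or more UMIs from 2 or more of its marker genes. These had to reach 8 times their share over all Sham nuclei and 3 times that of any other class, and nuclei passing several gates were left out. Non-neuronal classes also needed under 0.4% of UMIs from pan-neuronal markers. Neurons needed at least 0.4% and were split by 3 further lists. Of 240 listed markers 225 were found, and the gate thresholds were set after marker levels had been seen. The genes and lists were chosen with earlier results of these data known.

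Counts were summed per library and class where every library had at least 20 nuclei, and all genes passing filterByExpr were tested with edgeR 4.0.16 (R 4.3.3, TMM, quasi-likelihood F test, 6 libraries, 3 residual degrees of freedom). P-values were adjusted after Benjamini-Hochberg per class and comparison, and calls needed an adjusted p under 0.05 with a log2 fold change of at least 0.6 either way. Each edgeR value after ± is the SE that gives the F statistic of the test for that log2 fold change. It draws on all libraries fitted and on the spread of other genes. DESeq2 1.42.0 was an alternative. Differences between classes came from an edgeR fit of 2 classes with a term for the library. The spread in these fits was largely shared over genes. The free neuronal share of each non-neuronal class was estimated per library from the same pan-neuronal markers. It was subtracted as an alternative, with counts below 0 set to 0, and the classes of neurons were left as counted. Replicate numbers of MCAO contra and MCAO ipsi pair hemispheres of the same rats, so a fit with that block was run as well. Counting intervals are exact, at 95%. Of the called pairs of gene and class in either comparison with MCAO ipsi, the 30 with the smallest adjusted p were named by rule, and the other 6 were added after their values had been seen. For each gene with at least 20 UMIs in all, the class with the highest mean Sham level was named, and for each of the 3 lists the 3 genes called in most classes. The tests were tried on simulated counts. Robo4 was not analysed here. Promoters came from RefSeq (GRCr8), with an entry for 27 of the 37 genes.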

Additional observations from a re-analysis of the deposited data

Results flagged for a closer look

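For several genes the change in MCAO ipsi against Sham differed between 2 classes of nuclei that moved in opposite directions, of which at least 1 was called. Only genes whose MCAO ipsi and Sham libraries did not overlap in both classes were taken. Differences are from the edgeR interaction fit with Benjamini-Hochberg adjustment over all genes. For glutamatergic neurons against astrocytes or OPC, this fit took its spread almost wholly from all genes together. The very small p-values there do not measure a gene's own spread between libraries. Sema7a changed more in oligodendrocytes than in glutamatergic neurons by 2.37 ± 0.34 on the log2 scale (adjusted p = 0.00231) and than in medium spiny neurons by 3.02 ± 0.42 (adjusted p = 0.00889). Sema5b changed by 1.53 ± 0.23 more in OPC than in glutamatergic neurons (adjusted p = 6.68e-09). Against medium spiny neurons, oligodendrocytes differed by −1.33 ± 0.29 for Robo2 (adjusted p = 0.0245) and by −1.49 ± 0.33 for Robo1 (adjusted p = 0.0266). Plxna4 differed from glutamatergic neurons by −1.13 ± 0.35 in astrocytes (adjusted p = 0.0233) and by −1.65 ± 0.27 in OPC (adjusted p = 2.53e-07). Between astrocytes and OPC, the difference was −2.88 ± 0.54 for Sema3e (adjusted p = 0.000264) and 3.00 ± 0.70 for Nrp2 (adjusted p = 0.00457). Over all genes, the share below an adjusted p of 0.05 was 5.59% between oligodendrocytes and glutamatergic neurons (12 of 35 members), 4.34% between oligodendrocytes and medium spiny neurons (6 of 35), 6.35% between astrocytes and glutamatergic neurons (6 of 35), 5.05% between OPC and glutamatergic neurons (7 of 35) and 3.04% between astrocytes and OPC (4 of 27). Free neuronal RNA was lower in the glial classes of MCAO ipsi, and these fits were not repeated with it subtracted.

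For 2 genes the mMCAO ipsi and sMCAO ipsi libraries lay on opposite sides of Sham, which was not tested, since each is 1 library. They were found by a search of all tested pairs for this pattern. Nrp1 in other GABAergic neurons was at 0.707 of both Sham libraries in mMCAO ipsi (counting interval 0.596 to 0.837) and at 1.45 of them in sMCAO ipsi (1.25 to 1.68). Its levels were 52.7 and 51.7 CPM in Sham, 51.5 and 65.9 CPM in MCAO contra, and 37.0 and 75.6 CPM in MCAO ipsi. The sMCAO contra library was thus above Sham as well. Slit2 in fibroblasts was at 1.46 in mMCAO ipsi (1.05 to 2.07) and at 0.397 in sMCAO ipsi (0.285 to 0.563). Its levels were 726 and 980 CPM in Sham, 1253 and 852 CPM in MCAO contra, and 1269 and 345 CPM in MCAO ipsi. The moderate value was thus about as high in the hemisphere opposite to the infarct.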

How the results depend on the processing

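The counts of called pairs, 29 against Sham, 24 against MCAO contra and 3 for MCAO contra against Sham, were 61, 51 and 7 with no filter on low counts. With the held-out markers as gates the first 2 were 16 and 11. Keeping nuclei of several gates gave 47 against Sham, and fitting only the 2 groups gave 8 for MCAO contra against Sham. Leaving out 1 library gave 9 to 81, 10 to 73 and 0 to 11. DESeq2 gave 34, 19 and 2. With the replicate block, which pairs the hemispheres of the same rats, 25 pairs were called against MCAO contra, and the block changed none of the 24 calls. Of the 56 called values, the direction turned in 2: Plxna4 in astrocytes was at 1.29 with free neuronal RNA subtracted, and Nrp2 in medium spiny neurons, MCAO contra against Sham, at 0.0257 with the held-out markers as gates. The cause was not tested. Of the 56, 5 kept their call in every setting run. They were Sema3c in astrocytes in both comparisons, in OPC and medium spiny neurons against MCAO contra, and Slit3 in astrocytes against Sham. Slit3 had too few UMIs to be tested with free neuronal RNA subtracted, so that setting is missing for it. Sema3c in OPC had a value in 17 of 18 settings. With free RNA subtracted 44 of 54 values kept their call, with DESeq2 39 of 55 and with the held-out markers as gates 24 of 52. With a lower neuron cut 47 of 56 did and without nuclei of shared barcodes 52 of 56, these 2 settings chosen after seeing the data. Free RNA was subtracted in the non-neuronal classes only, so the values of neurons among the 54 could not change. That setting is therefore no check on calls in neurons, such as Sema3c in medium spiny neurons. Depth limits the classes with few nuclei, such as fibroblasts (21 and 24 in Sham) and endothelial nuclei (44 and 41).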

Other observations

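Myeloid nuclei, whose Sham libraries held 46 and 50 nuclei, had values of 2 receptors that did not pass the test. Nrp2 was at 38.3 and 12.9 CPM in Sham, 51.7 and 61.2 CPM in MCAO contra, and 91.3 and 185 CPM in MCAO ipsi, with a log2 fold change of 2.12 (edgeR adjusted p = 0.059). Plxnb2, a receptor of class 4 semaphorins, was at 19.2 and 0.00 CPM in Sham, 71.8 and 96.6 CPM in MCAO contra, and 55.4 and 87.2 CPM in MCAO ipsi, with a log2 fold change of 2.49 (edgeR adjusted p = 0.076). Robo3 in the other neurons had its lowest value in sMCAO ipsi, with 11.6 CPM in glutamatergic neurons against 39.3 to 53.0 CPM in the other 5 libraries, and 2 UMIs in other GABAergic neurons. These genes were picked after their values had been seen.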
